A study of Mus musculus with 2 samples.

Results

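The smooth muscle cells described here were 228 cell barcodes, 112 from the p47phox-KI library and 116 from the wild-type (WT) library, of 15578 barcodes that passed the quality filter and of 19593 in all. The members were chosen by UMI counts of marker genes in each barcode: at least 200 detected genes were required, with at most 10% mitochondrial UMIs (unique molecular identifiers, 1 per captured RNA molecule) and at least 2 UMIs of Myh11 and Cnn1 together. Barcodes with more than 1 UMI of Hhip, of Cldn5 and Cdh5 together, or of Slc34a2 and Lamp3 together, or with any UMI of Epcam or Ptprc, were left out. The study compared lungs of C57BL/6 mice of 2 genotypes, p47phox-KI and wild type, by droplet 3' RNA sequencing. The labels give acute lung injury for both libraries, so uninjured lung is not part of the comparison, and they state neither the agent of injury, the time, the age, nor how many mice were pooled. After perfusion, collagenase digestion and red cell lysis, the cells were stained with a viability dye and a CD45.2 antibody and sorted. The gate of the sort is not stated. There was 1 library per genotype, so no difference below has a replicate check and no p-value is given. Intervals are 95% intervals of counting error only.

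Smooth muscle cells wrap airways, arteries and veins and set their calibre. Their tone rests on a cytoplasmic actomyosin apparatus: smooth muscle myosin (Myh11) pulls on alpha smooth muscle actin (Acta2), calponin (Cnn1) and transgelin (Tagln) bind the actin filaments, and desmin (Des) anchors them. Serum response factor with its partner myocardin switches on many of these genes through a promoter element called the CArG box. Pericytes, the mural cells of capillaries, lie on the same vascular tree, express Pdgfrb, Cox4i2, Higd1b and Notch3, and carry little Acta2 in resting lung. p47phox, encoded by Ncf1, is the cytosolic organizer of the phagocyte NADPH oxidase, which makes superoxide.

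The members were deep enough for their stronger genes only. KI members held 548278 UMIs in sum, with a median of 4175 UMIs and 1994.5 genes per barcode, and WT members held 480581 UMIs, with medians of 3783.5 UMIs and 1796 genes. The median mitochondrial share was 4.99% in KI and 5.48% in WT members. A count of 3 UMIs corresponded to 5.47 CPM (UMIs of a gene per 1000000 UMIs of the members) in KI and 6.24 CPM in WT members. Both libraries shared 30 barcode sequences, among them 2 KI members and 1 WT member. Ncf1, the gene named in the genotype, had 0 UMIs in 112 KI members and 0 in 116 WT members, which, at 3 counts of the total, allows up to 2.68% of KI and 2.59% of WT members with a UMI (exact upper bounds 3.24% and 3.13%). Over all passing barcodes Ncf1 was detected in 107 of 7161 KI and 139 of 8417 WT barcodes, and in 28.7% of KI and 28.6% of WT barcodes with a Ptprc UMI and none of Epcam. The exact intervals of the last 2 shares were 21.1 to 37.3% and 22.2 to 35.6%. A change in the coding sequence of Ncf1 is outside what these counts measure.

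The marker genes bore out the smooth muscle label for only some of the members. Acta2 and Tagln together had no UMI in 31 of 112 KI and 23 of 116 WT members, 1 to 4 UMIs in 11 KI and 7 WT members, 5 to 19 in 10 KI and 12 WT members, and 20 or more in 60 KI and 74 WT members. Few members lay between the extremes. Members with at least 5 such UMIs, 70 KI and 86 WT barcodes (62.5% and 74.1%), are called Acta2/Tagln-rich below, and the other 42 KI and 30 WT barcodes Acta2/Tagln-poor. This split was made after the values had been seen. The poor members carried the genes that mark pericytes: 2 or more UMIs of Cox4i2, an oxygen-regulated cytochrome oxidase subunit, were present in 40 of 42 KI and 25 of 30 WT poor members, and 2 or more of the PDGF receptor Pdgfrb in 41 KI and 26 WT poor members. Mustn1, a small nuclear protein of muscle tissue, reached 2 UMIs in 0 of 42 KI and 1 of 30 WT poor members, against 62 of 70 KI and 68 of 86 WT rich members. The gamma actin of enteric smooth muscle, Actg2, did so in none of the poor members and in 38 KI and 42 WT rich members. The poor members are therefore named here only by their low Acta2 and Tagln, and the value in rich members is given beside a ratio where it falls on the other side of the size used below or moves the ratio by more than 1.5 times.

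**Figure D1:**
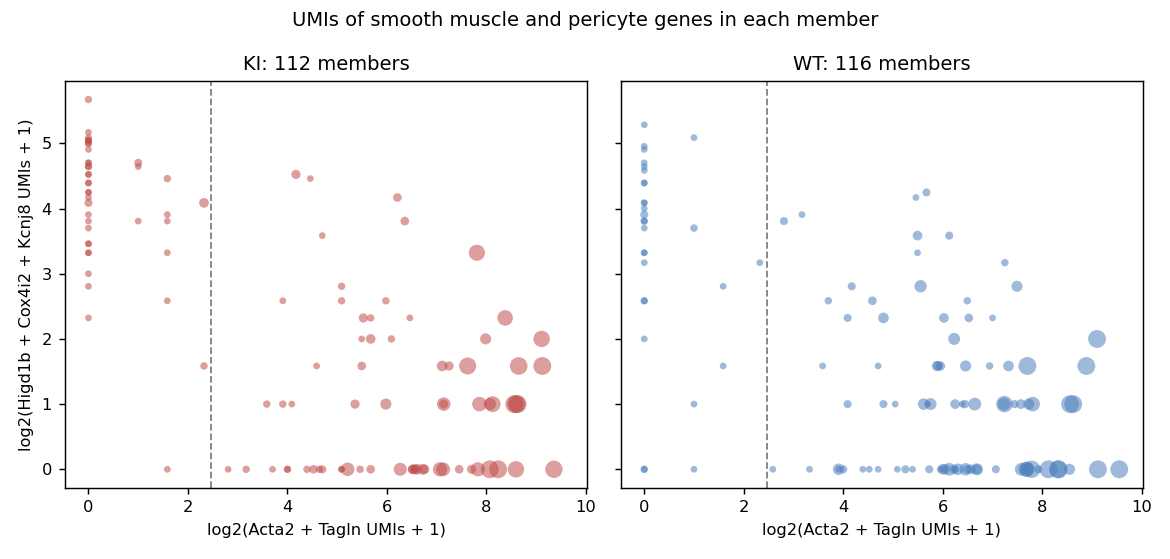
Each point is 1 member barcode, with KI in the left panel and WT in the right. The horizontal axis gives the log2 of its Acta2 and Tagln UMIs plus 1, the vertical axis the log2 of its Higd1b, Cox4i2 and Kcnj8 UMIs plus 1, and the point's area grows with its Myh11 and Cnn1 UMIs. The dashed line separates the 42 KI and 30 WT Acta2/Tagln-poor members at the left from the 70 KI and 86 WT rich members. Points at the left reach the top of the vertical axis and are small.

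Values along the rule's own threshold are given as a description. Exactly 2 UMIs of Myh11 and Cnn1 were found in 45 KI and 44 WT members, just inside the rule, whose Acta2 level was 1003 CPM in KI and 2792 CPM in WT. Just outside it, 138 KI and 96 WT barcodes with 1 such UMI had 791 CPM of Acta2 in KI and 422 CPM in WT. Members with a sum of 10 or more, 24 in KI and 32 in WT, had 20133 CPM of Acta2 in KI and 20855 CPM in WT. Cox4i2 was at 2392 CPM in KI and 3080 CPM in WT barcodes at a sum of 1, just outside the rule, at 3117 CPM in KI and 2515 CPM in WT members at a sum of 2, and at 133 CPM in KI and 94.3 CPM in WT members at 10 or more. Cnn1 was at 0 in 74 KI and 75 WT members, and Myh11 in 0 KI members and 1 WT member, so Myh11 decided most entries. Before the exclusions, 221 KI and 181 WT barcodes had a sum of at least 2, of which 102 KI and 57 WT barcodes held more than 1 UMI of Cldn5 and Cdh5.

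Levels were then set beside other gates. Acta2, which the split itself used and which therefore had to differ between the subsets, stood at 13488 CPM in KI and 15345 CPM in WT rich members, at 66.9 CPM in KI and 34 CPM in WT poor members, and at 225 CPM in KI and 152 CPM in WT barcodes of a pericyte gate (at least 2 UMIs of Higd1b, Cox4i2 and Kcnj8 with at most 1 of Myh11 and Cnn1). Myh11, which the rule used, was at 1690 CPM in KI and 2070 CPM in WT rich members, 656 CPM in KI and 748 CPM in WT poor members, and 87 CPM in KI and 73 CPM in WT barcodes of the pericyte gate. Des was at 1775 CPM in KI and 1871 CPM in WT rich members, and at 609 CPM in KI and 601 CPM in WT poor members. Notch3, the Notch receptor of mural cells, was at 406 CPM in KI and 507 CPM in WT rich members, below its 770 CPM in KI and 896 CPM in WT poor members. Notch3 and Actg2 were found together, each with 2 or more UMIs, in 15 of 70 KI and 18 of 86 WT rich members. The airway markers listed were Actg2, Lgr6, Hhip, Chrm2 and Nog. Actg2 gave 359 of their 374 UMIs in KI members and 444 of 452 in WT members. Lgr6 reached 2 UMIs in 2 KI and 0 WT members, and Nog had none. Barcodes with more than 1 UMI of Hhip were excluded by the rule itself. The vascular markers listed were Notch3, Pln, Gja4, Map3k7cl, Mustn1 and Heyl. They summed to 2971 CPM in KI and 2826 CPM in WT members, and the airway markers to 682 CPM in KI and 941 CPM in WT. Mustn1 gave 1045 of the 1629 vascular UMIs in KI members and 885 of 1358 in WT members. The pericyte gate held 1377 CPM of the vascular markers in KI and 1235 CPM in WT. Members carry no named vessel or airway identity here.

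**Figure D2:**
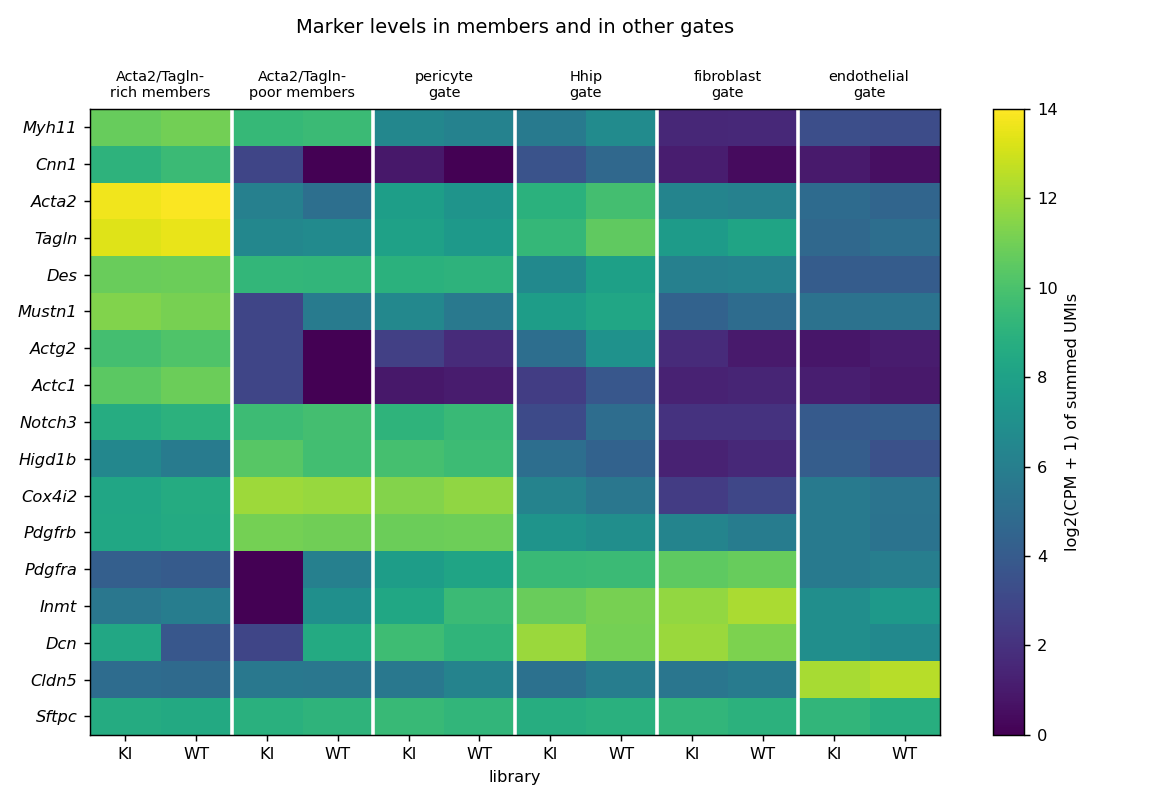
Colour gives log2(CPM + 1) of UMIs summed over the barcodes of each gate, for 17 marker genes (rows) in 6 gates, KI left of WT in each. Acta2 and Tagln are bright only in the Acta2/Tagln-rich members, Cox4i2 and Pdgfrb in the poor members and the pericyte gate, and Cldn5 in the endothelial gate, while Sftpc shows a similar level in every gate.

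A cardiac form of actin, Actc1, was also carried by rich members: 2 or more UMIs were present in 24 of 70 KI and 26 of 86 WT rich members, and in none of the 42 KI and 30 WT poor ones. Actc1 and Actg2 coincided in 19 KI and 23 WT rich members. Of the other cardiac genes listed, Myh6, Myl7, Nppa and Tnni3 were at 0 in both libraries, and Tnnt2, troponin T, had 38.3 CPM in KI and 56.2 CPM in WT members. Markers of other cells differed in level. The 9 fibroblast markers summed to 803 CPM in KI and 635 CPM in WT members, against 11772 CPM in KI and 11689 CPM in WT barcodes of a fibroblast gate (at least 2 UMIs of Pdgfra and Tcf21, low for the markers of muscle, pericytes and other cells), with Ces1d and Pi16 at 0 in KI members. A sum of 2 or more for Pdgfra and Tcf21 was found in 13 KI and 18 WT members. In rich members the list stood at 855 CPM in KI and 515 CPM in WT, a log2 ratio of KI over WT of 0.73 (0.48 to 0.99), of which Dcn gave 135 of 341 UMIs in KI and 5 of 202 in WT; its part in the matrix ratios below was not tested. Of 5 leukocyte markers, all were at 0 in KI, and only Coro1a was above 0 in WT (4 UMIs). The 3 mesothelial markers were at 0 in both libraries. Sftpc, the surfactant gene of alveolar type 2 cells, was at 409 CPM in KI and 400 CPM in WT members and at 585 CPM in KI and 432 CPM in WT endothelial barcodes, a level that cells lacking the gene shared. The 4 haemoglobin genes summed to 29 UMIs in KI and 1 UMI in WT members, and to 979 CPM in KI and 182 CPM in WT passing barcodes outside the members, and their part in the other differences was not tested. After each barcode had been thinned to 1500 UMIs, Acta2 was detected in 62.4% of 109 KI and 73.0% of 111 WT members, against 2.06% of 3687 KI and 2.22% of 4406 WT endothelial barcodes. The unthinned shares were 66.1% of KI and 75.9% of WT members. Median depths of the unthinned endothelial barcodes were 4042 UMIs in KI and 3633 UMIs in WT.

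Members made up 1.56% of passing KI barcodes (exact interval 1.29 to 1.88%) and 1.38% of passing WT barcodes (1.14 to 1.65%), a log2 ratio of KI over WT of 0.18 (-0.21 to 0.57). The rich members alone gave -0.06 (-0.54 to 0.41) and the poor members 0.72 (0.01 to 1.45). The pericyte gate held 362 KI and 344 WT barcodes, a log2 ratio of 0.31 (0.09 to 0.52). With 1 library each, genotype and recovery of cells cannot be told apart.

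Expression in members was set side by side as the log2 ratio of KI over WT, from UMIs summed over the members of a library and divided by their total, with 0.5 counts added to each sum. Of 3649 genes with at least 50 UMIs over both libraries, 487 (13.3%) were higher in KI by more than 0.5 and 303 (8.3%) lower by more than 0.5, with a median of 0.04. In the rich members 2648 genes could be measured, 308 (11.6%) higher and 256 (9.67%) lower, with a median of 0.02. These shares are the background for each list below. Of the 24 genes named below by rule, 23 stayed past 0.5 under all 15 alternatives run for single genes. Of 88 other listed genes past 0.5, 18 did. The 24 were picked for the largest ratios in these same cells, so their count is no independent check. For that reason it cannot be compared with the count of the other genes.

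Genes of the contractile apparatus were close in level between the genotypes, and slightly lower in KI members. Of 25 measured genes without the rule's own Myh11 and Cnn1, 1 was higher by more than 0.5 (4% of the list) and 2 were lower, with a median of -0.19, and in the rich members the counts were 1 and 0 with a median of -0.09. Their summed level was 38964 CPM in KI and 46864 CPM in WT members, a log2 ratio of -0.27 (-0.29 to -0.24), and 50554 CPM in KI and 55837 CPM in WT rich members, -0.14 (-0.17 to -0.12). The ratio of the sum was nearer 0, and still below it, with the poor members left out. The split was made on Acta2 and Tagln, which are part of this sum. The move of the sum, and of the ratios of these genes below, is therefore no independent result. Acta2 was at 9831 CPM in KI (Poisson interval 9570 to 10097) and 12535 CPM in WT members (12220 to 12855), a log2 ratio of -0.35, and at -0.19 (-0.24 to -0.13) in rich members. Tagln was at 7538 CPM in KI and 9672 CPM in WT members, -0.36 in all and -0.19 in rich members. The myosin light chains Myl9 and Myl6 gave -0.16 and -0.14 in all members and -0.02 each in rich members, where the intervals spanned 0. Tropomyosin 1 (Tpm1) was lower by more than 0.5 in all members (-0.51, -0.66 to -0.35) and at -0.38 in rich members. Caldesmon (Cald1), which links actin and myosin, was at -0.27 and -0.34, and palladin (Palld), an actin bundler, at -0.51 and -0.36.

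Smoothelin (Smtn), an actin-associated protein of contractile smooth muscle, was the one gene of the list above 0.5. It had 157 CPM in KI and 89.5 CPM in WT members, from 86 and 43 UMIs, a log2 ratio of 0.80 (0.27 to 1.37) and of 0.99 (0.38 to 1.65) in rich members, and of 0.47 with members thinned to 1500 UMIs. Smtn was detected in 52 of 112 KI and 28 of 116 WT members, and the 3 KI members with the most UMIs held 18.6% of its KI UMIs. Leiomodin 1 (Lmod1), an actin filament nucleator, was at 485 CPM in KI and 393 CPM in WT members, 0.30 in all and 0.42 in rich members. Actg2 was at 655 CPM in KI and 924 CPM in WT members, -0.50 in all and -0.33 in rich members. Actc1 was at 1025 CPM in KI and 1511 CPM in WT members, -0.56 in all and -0.40 in rich members. The highest single member held 18.3% of the Actc1 UMIs in KI and 23.0% in WT, so that a few barcodes weigh on that value.

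**Figure D3:**
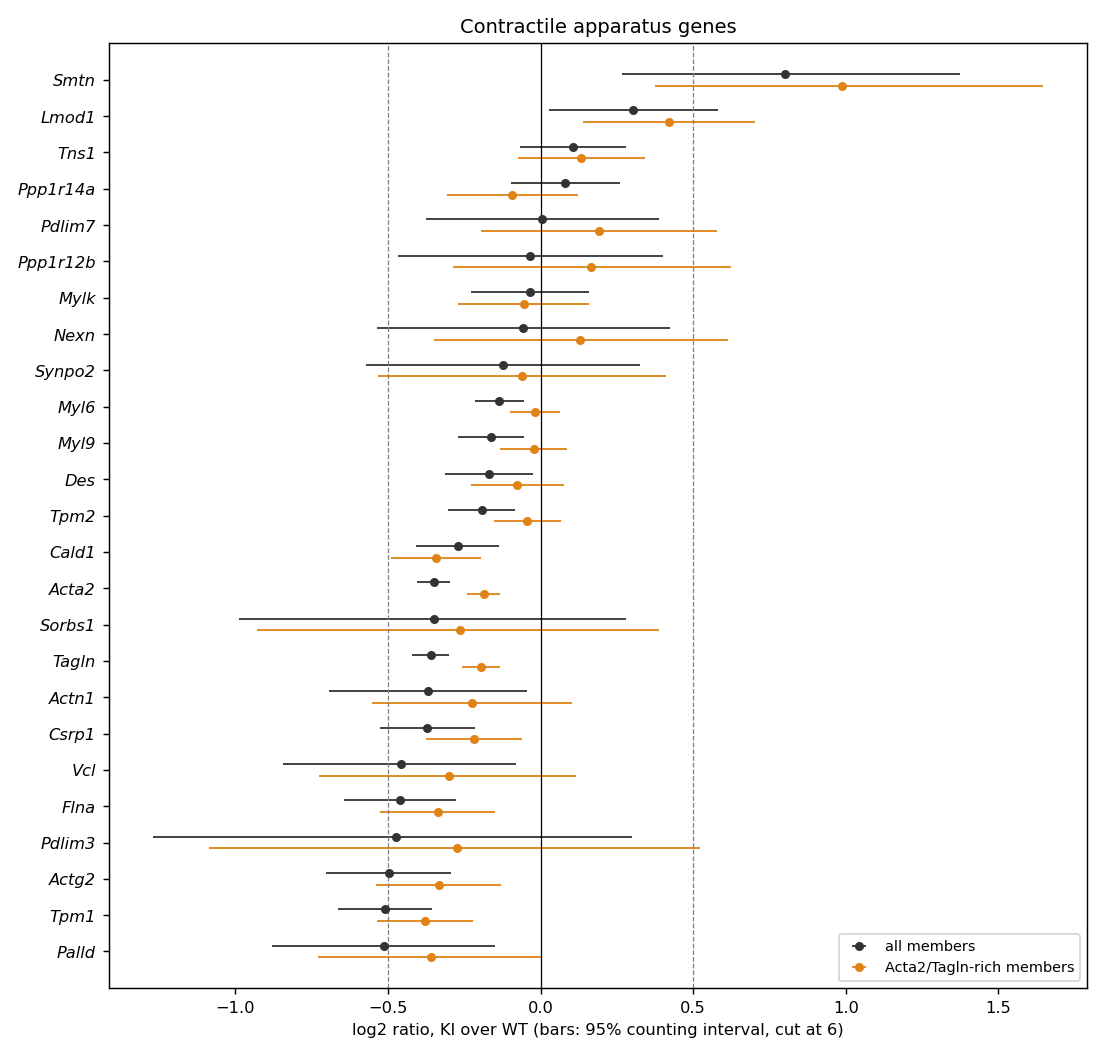
Log2 ratios of KI over WT for the 25 measured contractile genes, with black points for all members and orange points for Acta2/Tagln-rich members, bars giving 95% counting intervals and dashed lines 0.5 to either side of 0. Most orange points lie closer to 0 than the black ones, and Smtn stands highest in both. Acta2 and Tagln themselves defined the rich members.

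The DNA element through which serum response factor binds contractile genes was looked for in the RefSeq start regions of build GRCm38.p6, since these genes form the list that the label rests on. The window was the 250 bases before each annotated start, and the motif, the CArG box, was searched without mismatch. The search pattern is its own reverse complement, though a single matched box need not be, so a match on either strand is a match on both. It was found in 482 of 32851 windows (1.47%) of all genes and in 6 of 33 windows (18.2%) of the contractile list with Actc1, which had an entry for 26 of 31 genes. Those windows belonged to 5 genes: Actc1, Myl9, Myl6, Vcl and Ldb3. The windows of Ldb3 overlap and share the same box. A pair is shown because Actc1 was lower by more than 0.5 in KI members and Myl9 was not. Capitals mark the matched CArG box, and each line runs 5' to 3' on the strand of the gene.
Actc1, chr2:114052876-114053125, minus strand: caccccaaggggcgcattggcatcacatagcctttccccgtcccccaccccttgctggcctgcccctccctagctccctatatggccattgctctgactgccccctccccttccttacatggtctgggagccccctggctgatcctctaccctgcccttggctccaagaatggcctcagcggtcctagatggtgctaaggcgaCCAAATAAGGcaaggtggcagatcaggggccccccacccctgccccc
Myl9, chr2:156775214-156775463, plus strand: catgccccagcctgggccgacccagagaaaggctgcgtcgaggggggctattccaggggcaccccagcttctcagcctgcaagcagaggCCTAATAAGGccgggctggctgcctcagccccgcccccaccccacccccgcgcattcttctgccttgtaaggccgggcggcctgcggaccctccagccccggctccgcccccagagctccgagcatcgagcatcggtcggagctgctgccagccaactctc
The box began 47 bases before the annotated start of Actc1 and 161 bases before that of Myl9. These are matches of letters, with no binding data behind them. The windows of the other genes say nothing of elements elsewhere or of boxes with a mismatch.

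Regulators of the smooth muscle programme had ratios in both directions. Of 18 measured transcription regulators, 3 were higher and 1 lower by more than 0.5, with a median of 0.17, and in rich members 3 and 3 of 17, with a median of 0.27. Myocardin (Myocd), the partner of serum response factor, was at 102 CPM in KI and 89.5 CPM in WT members, 0.19 (-0.41 to 0.80), and all of its UMIs came from rich members. Heyl, a transcription factor induced by Notch, was at 237 CPM in KI and 150 CPM in WT members, 0.66 (0.24 to 1.10), and at 0.47 in rich members. Foxs1, a forkhead factor of mural cells, was at 73.0 CPM in KI and 39.5 CPM in WT members, 0.86 (0.06 to 1.75), and at 0.71 in rich members. Gata6, a factor of differentiated vascular muscle, had 102 CPM in KI and 68.7 CPM in WT members, 0.56, with an interval from -0.07 to 1.24. Mef2d, of the MEF2 family of muscle transcription factors, gave -0.65, also with an interval that spanned 0.

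Few of the receptors that couple vasoactive signals to tone could be measured. Of 45 receptors listed, 8 were measured, of which 4 were higher by more than 0.5 and none lower, and in rich members 1 of 7 was higher and 1 lower. P2rx1, the ATP-gated cation channel by which sympathetic nerves contract small arteries, was the gene with the highest ratio by the naming rule given further on. It had 122 CPM in KI (94.7 to 155) and 24.97 CPM in WT members (12.9 to 43.6), a log2 ratio of 2.24 (1.39 to 3.31). All 67 KI and 12 WT UMIs of P2rx1 lay in rich members, where it was detected in 17 KI and 7 WT barcodes, and the pericyte gate had 0 CPM in both libraries. The 3 members with the most UMIs held 47.8% of its UMIs in KI and 66.7% in WT, and without the top member of each library the ratio was 2.53. The mitochondrial limit moved P2rx1: at 5% it had 24 UMIs in KI and 0 in WT members, and with no limits 76 in KI and 44 in WT, a ratio of 0.68.

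The angiotensin receptor Agtr1a, the thrombin receptor F2r and the UDP-sugar receptor P2ry14 were the other receptors past 0.5. Agtr1a was at 171 CPM in KI and 95.7 CPM in WT members, 0.83 (0.32 to 1.38). In rich members Agtr1a had 6 UMIs in KI and 4 in WT, and in poor members 589 CPM in KI and 476 CPM in WT. Without members that held 2 or more pericyte-marker UMIs it had 1 UMI in KI and 3 in WT. F2r was at 544 CPM in KI and 339 CPM in WT members, 0.68 in all and 0.36 (-0.18 to 0.91) in rich members. P2ry14 had 195 CPM in KI and 135 CPM in WT members, 0.52 in all and 0.41 in rich members. The endothelin receptors Ednra and Ednrb gave -0.27 (-0.65 to 0.10) and -0.26 (-0.79 to 0.27).

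Behind the receptors, genes of cyclic nucleotide signalling, which relaxes smooth muscle, held both large ratios and many near 0. Of 16 measured, 2 were higher and 1 lower by more than 0.5, with a median of 0.01. The subunits of soluble guanylate cyclase, the receptor for nitric oxide, had positive ratios, of which 1 passed 0.5: Gucy1a1 was at 1510 CPM in KI and 990 CPM in WT members, 0.61 (0.44 to 0.77) and 0.50 in rich members, and Gucy1b1 at 998 CPM in KI and 726 CPM in WT members, 0.46 and 0.25. Pde5a, which breaks down the cyclic GMP they make, was at 607 CPM in KI and 599 CPM in WT members. Pde4b, a phosphodiesterase specific for cyclic AMP, was at 27.4 CPM in KI (15.3 to 45.1) and 110 CPM in WT members (82.6 to 144), -1.98 (-2.94 to -1.16). It was detected in 9 of 112 KI and 25 of 116 WT members, and the value in rich members was -1.96. Barcodes of the fibroblast gate gave -2.00, those of the pericyte gate -0.43 (-1.26 to 0.40) and those of the endothelial gate -0.11 (-0.19 to -0.04). Without the deepest 10% of members Pde4b was at -1.13, from 13 UMIs in KI and 25 in WT. Adenylate cyclase 9 (Adcy9), which makes cyclic AMP, was at 74.8 CPM in KI and 33.3 CPM in WT members, 1.14 in all and 1.17 in rich members.

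Of 21 measured genes of ion channels and calcium handling, 1 was higher and 2 lower by more than 0.5, with a median of 0.02. Trpm7, a divalent cation channel, gave 0.60 (0.02 to 1.22). Camk2g, a calcium and calmodulin-dependent kinase, had 38.3 CPM in KI and 87.4 CPM in WT members, -1.17 (-2.02 to -0.40), and -1.47 in rich members, but -0.40 at the 5% mitochondrial limit. Of 28 costamere, integrin and caveola genes, 3 were higher and 3 lower. Itga5, the fibronectin receptor subunit, was at 62.0 CPM in KI and 154 CPM in WT members, -1.30 (-1.94 to -0.71), and -1.18 in rich members. Dystrobrevin alpha (Dtna), part of the dystrophin complex, was at 328 CPM in KI and 181 CPM in WT members, 0.85 (0.48 to 1.25), and at 0.55 in rich members.

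Matrix genes held ratios in both directions. Of 46 measured, 5 were higher and 4 lower by more than 0.5, with a median of 0.10. Elastin (Eln), the elastic fibre of vessel walls, was at 1339 CPM in KI (1244 to 1439) and 976 CPM in WT members (890 to 1068), 0.46 (0.29 to 0.63). In rich members Eln was at 1785 CPM in KI and 1162 CPM in WT, 0.62 (0.45 to 0.79), past 0.5. Asporin (Aspn), a small leucine-rich protein of the matrix, was at 450 CPM in KI and 246 CPM in WT members, 0.87 in all and 0.89 in rich members. The fibrillar collagen chain Col5a2 was at 208 CPM in KI and 104 CPM in WT members, 0.99 (0.51 to 1.51), and at 0.78 in rich members. Osteopontin (Spp1) was at 2781 CPM in KI and 1702 CPM in WT members, 0.71, but only 9 of its 1525 KI and 3 of its 818 WT UMIs came from rich members.

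Thrombospondin 1 (Thbs1), which activates latent TGF-beta, was at 471 CPM in KI (415 to 532) and 1107 CPM in WT members (1015 to 1205), -1.23 (-1.45 to -1.02). The ratio was -1.06 in rich members, and it was -1.29 in the pericyte gate, -1.71 in the fibroblast gate and -1.51 in the endothelial gate, so a lower level in KI was not confined to smooth muscle. Osteoglycin (Ogn) was at 85.7 CPM in KI and 202 CPM in WT members, -1.23 in all and -0.90 in rich members. Ltbp1, which stores latent TGF-beta in the matrix, was at 32.8 CPM in KI and 85.3 CPM in WT members, -1.36 in all and -0.92 in rich members, and Tgfb2 itself at 130 CPM in KI and 191 CPM in WT members, -0.56.

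Among matrix proteases and their inhibitors, 3 of 19 were higher and 4 lower. Timp4, a metalloproteinase inhibitor, was at 438 CPM in KI (384 to 497) and 93.6 CPM in WT members (68.3 to 125), 2.21 (1.76 to 2.72), with 240 KI and 45 WT UMIs that all lay in rich members. Timp4 was found in 26 of 112 KI and 13 of 116 WT members, was at 0 CPM in the pericyte gate of both libraries, and gave 2.46 without the top member of each library. At a mitochondrial limit of 5% Timp4 had 88 UMIs in KI and 0 in WT members, and with no limits 278 in KI and 86 in WT, a ratio of 1.58. The gene was thus carried by a minority of members in both libraries. Its relative Timp3 went the other way, at 1516 CPM in KI and 2395 CPM in WT members, -0.66 (-0.79 to -0.53), with -0.68 in rich members and detection in 105 KI and 110 WT members. Mmp3 had 3 UMIs in KI and 54 in WT members, but 1 WT barcode held 34 of them.

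Of 15 measured genes listed for synthetic smooth muscle, the state that makes matrix in place of force, 2 were higher and 4 lower, with a median of -0.19 and of -0.05 in rich members. Dcn, a fibroblast proteoglycan, was one of the higher, with 136 UMIs in KI and 38 in WT members, but 3 KI barcodes held 91.2% of them and 3 WT barcodes 92.1%. Only 5 of 112 KI and 3 of 116 WT members had 2 or more UMIs of Dcn, and 24 KI and 26 WT members had that many of Actc1. No member had both, and with so few Dcn members nothing is read from that.

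Metallothioneins were lower in KI members at the mitochondrial limit of 10%, and less so at a stricter one. Mt1, which binds zinc and is induced by metals, glucocorticoids and oxidants, was at 5951 CPM in KI (5749 to 6159) and 12312 CPM in WT members (12000 to 12630), -1.05 (-1.11 to -0.99), and at -0.87 in rich members. Mt2 gave -1.002 (-1.12 to -0.89) in all and -0.82 in rich members. With a mitochondrial limit of 5%, which left 57 KI and 41 WT members, Mt1 was at -0.20 and Mt2 at -0.22, inside 0.5. At the 10% limit Mt1 was also lower in KI in the pericyte gate (-0.41), the fibroblast gate (-0.76) and the endothelial gate (-1.43). Of 28 measured NADPH oxidase and redox genes, 3 were higher and 3 lower, with a median of -0.08. The third lower gene was the thioredoxin reductase Txnrd1, at 63.8 CPM in KI and 117 CPM in WT members, -0.86 (-1.52 to -0.23). Nox4, an oxidase subunit of vascular muscle that works without p47phox, had 38 UMIs in KI and 19 in WT members, 69.3 CPM in KI and 39.5 CPM in WT, 0.79, with an interval from -0.02 to 1.69 and a value of 0.92 (0.08 to 1.84) in rich members. With members thinned to 1500 UMIs each, Nox4 was at -0.36, so no direction is read. Cyba, p22phox, which pairs with Nox4, was at 171 CPM in KI and 191 CPM in WT members, -0.16 (-0.59 to 0.27). Txnip, which binds thioredoxin, was at 618 CPM in KI and 429 CPM in WT members, 0.53 in all and 0.78 (0.49 to 1.09) in rich members.

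Chaperones of the cytosol had ratios in both directions. Of 19 measured heat-shock genes, 5 were higher and 2 lower, with a median of 0.12, and in rich members 2 of 17 were higher and 2 lower. The inducible Hspa1a was at 1525 CPM in KI and 913 CPM in WT members, 0.74 in all and 1.15 (0.92 to 1.39) in rich members, and Hspa1b at 748 CPM in KI and 437 CPM in WT members, 0.77 and 0.86. These 2 genes are near-identical copies, and counting of reads could split them unevenly. Their co-chaperone Dnajb1 was at 96.7 CPM in KI and 39.5 CPM in WT members, 1.27 in all and 1.10 in rich members, but at 0.057 with the 5% mitochondrial limit. Hspb1, the small heat-shock protein that binds actin in muscle, was at 3409 CPM in KI and 5691 CPM in WT members, -0.74 (-0.83 to -0.65), with -0.64 in rich members, -0.37 at the 5% mitochondrial limit, -0.62 in the fibroblast gate and -0.07 in the endothelial gate.

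In the endoplasmic reticulum, 0 of 18 measured stress genes were higher and 1 was lower by more than 0.5, with a median of -0.26 and of -0.21 in rich members. That gene, Hspa5, the chaperone BiP, was at 686 CPM in KI and 1018 CPM in WT members, -0.57 (-0.77 to -0.37). Hspa5 gave -0.58 in the pericyte gate, -0.64 in the fibroblast gate and -0.58 in the endothelial gate, close to its value in members.

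Of 20 measured inflammatory and NF-kB genes, 2 were higher and 6 lower, with a median of -0.21 and of -0.13 in rich members. Vcam1, the leukocyte adhesion molecule, was at 58.4 CPM in KI (39.9 to 82.4) and 162 CPM in WT members (128 to 203), -1.46 (-2.12 to -0.86), and -1.35 in rich members. The oncostatin M receptor Osmr was at 45.6 CPM in KI and 117 CPM in WT members, -1.34 in all and -1.22 in rich members, and its signalling partner Il6st at 177 CPM in KI and 254 CPM in WT members, -0.52 in all and -0.49 in rich members. Complement C3 had 8 UMIs in KI and 103 in WT members, but 1 WT member held 88.3% of the WT count, and in rich members C3 had 8 UMIs in KI and 7 in WT. The inhibitor of NF-kB, Nfkbia, was at -0.01 (-0.22 to 0.20). Of 13 interferon-induced genes, 0 were higher and 3 lower, with Iigp1, an immunity-related GTPase, at -0.70 (-1.24 to -0.17) in all and -0.40 in rich members.

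Genes that respond to cell tension and YAP had 2 higher and 4 lower of 14. Ctgf, a matricellular protein and YAP target, was at 527 CPM in KI (468 to 592) and 1248 CPM in WT members (1151 to 1352), -1.24 (-1.45 to -1.04), and at 436 CPM in KI and 1465 CPM in WT rich members, -1.75 (-2.00 to -1.50). In poor members Ctgf was at 770 CPM in KI and 283 CPM in WT, and in the pericyte gate at 783 CPM in KI and 350 CPM in WT, 1.16. The direction in rich members was thus opposite to that in the pericyte gate, a difference that was not tested. In the fibroblast gate Ctgf was at -0.61 (-0.72 to -0.50) and in the endothelial gate at -0.14 (-0.21 to -0.07). A lower level in KI was therefore not confined to smooth muscle. Its relative Cyr61 gave -0.50 in all and -0.38 in rich members, and Yap1 itself was at 41.95 CPM in KI and 85.3 CPM in WT members, -1.01 (-1.83 to -0.25) in all and -1.45 in rich members. Of 17 glucocorticoid and clock genes, 2 were higher and 3 lower. Tsc22d3, a glucocorticoid-induced leucine zipper protein, was at 536 CPM in KI and 298 CPM in WT members, 0.85 (0.56 to 1.15) in all and 0.71 in rich members, and Sgk1, a kinase that glucocorticoids also induce, at 115 CPM in KI and 225 CPM in WT members, -0.96 (-1.44 to -0.51) in all and -0.94 in rich members. Of 20 immediate-early genes, 1 was higher and 4 lower. Atf3, the higher one, was at 319 CPM in KI and 181 CPM in WT members, 0.81, and 1.35 (0.94 to 1.80) in rich members, but at 0.20 without the deepest 10% of members. In rich members Jun also passed 0.5, at 0.69 (0.52 to 0.86), against 0.36 in all members.

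**Figure D4:**
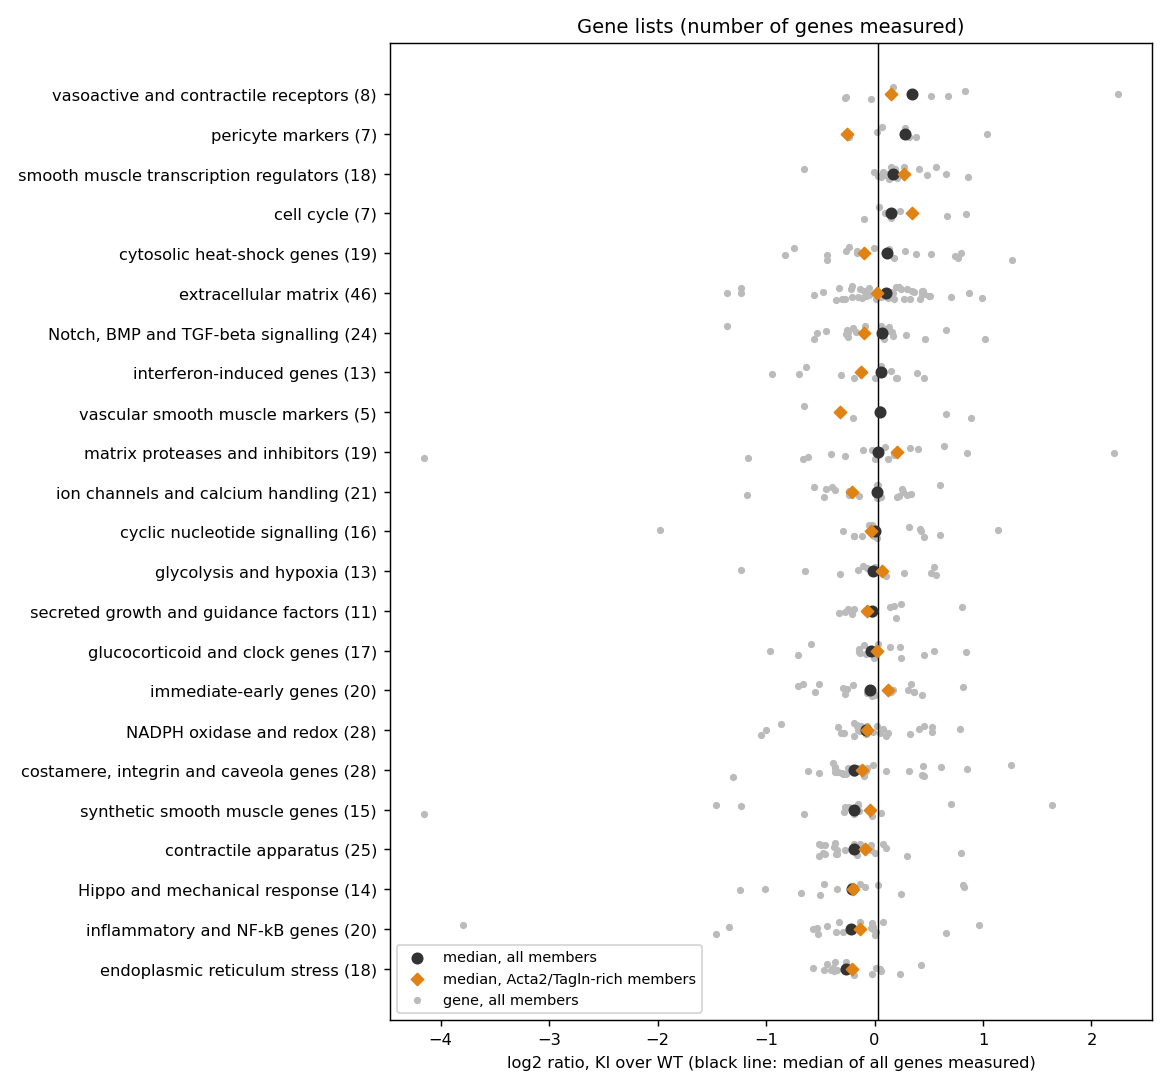
Each row is a gene list with its number of measured genes. Grey points are the log2 ratios of KI over WT of its genes in all members, black circles their median, orange diamonds the median in Acta2/Tagln-rich members, and the vertical line the median over all 3649 genes. Over these lists, each with at least 5 measured genes, medians in all members lie between -0.26 and 0.35. Several change sign from all to rich members. Pericyte markers go from 0.28 to -0.26, vascular smooth muscle markers from 0.05 to -0.32 and heat-shock genes from 0.12 to -0.09. Some go the other way, such as immediate-early genes, from -0.04 to 0.12.

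The genes at both ends were taken by size alone, 12 on each side, from those that reached 100 CPM and were detected in 10% or more of the members of one library or the other. Ribosomal, mitochondrial, haemoglobin and unnamed genes were not ranked. Next to P2rx1 and Timp4 on the higher side stood Sult1a1, a phenol sulfotransferase, at 131 CPM in KI and 31.2 CPM in WT members, 2.04 (1.26 to 2.98). Sult1a1 was detected in 40 of 112 KI and 13 of 116 WT members, gave 1.34 in rich members and 0.84 without pericyte-marked members (7 UMIs in KI and 4 in WT), and was also higher in KI in the pericyte gate (1.03), the fibroblast gate (0.91) and the endothelial gate (1.24). Fam162b and the carbonic anhydrase Car2 gave 1.74 and 1.68, but in rich members they had 6 UMIs in KI against 1 in WT and 10 in KI against 3 in WT. Rrad, a Ras-related GTPase that restrains calcium channels, gave 1.46 in all and in rich members, and 0.79 at the 5% mitochondrial limit. Pck2, the mitochondrial phosphoenolpyruvate carboxykinase, gave 1.59, and Kank3, St5 and Arl6ip1 ranged from 1.25 to 1.37. In the pericyte, fibroblast and endothelial gates Kank3 gave 0.58, 0.73 and 0.44, St5 0.22, 0.61 and 0.83, and Arl6ip1 0.38, 0.21 and 0.28. Kank3 was at 109 CPM in KI and 41.6 CPM in WT members. In the endothelial gate it was at 345 CPM in KI and 255 CPM in WT.

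On the lower side, next to Pde4b, Vcam1, Osmr, Itga5, Ctgf and Thbs1, stood Eif1a, a translation initiation factor, at 73.0 CPM in KI and 202 CPM in WT members, -1.46 (-2.04 to -0.92) in all and -1.79 in rich members. Hif1a, the oxygen-regulated transcription factor, was at 74.8 CPM in KI (53.7 to 101) and 177 CPM in WT members (141 to 219), -1.23 (-1.82 to -0.69), with -1.31 in rich members and -0.81 in both the pericyte and the fibroblast gate. Serpina3n, an acute-phase protease inhibitor, gave -1.42 in all and -0.78 in rich members. In poor members it had 0 UMIs in KI and 20 in WT. The ratio was 0.18 in the pericyte gate, 0.07 in the fibroblast gate and -0.17 in the endothelial gate. Serpina3n was at 54.7 CPM in KI and 148 CPM in WT members, against 1381 CPM in KI and 1313 CPM in WT fibroblast barcodes. The part of RNA from other cells was not tested. The galactosyltransferase B4galt1 gave -1.25 and -1.33. On mm10, P2rx1 (ENSMUSG00000020787) lies on the plus strand at chr11:72999103-73015200, Timp4 (ENSMUSG00000030317) on the minus strand at chr6:115241892-115252205, Pde4b (ENSMUSG00000028525) on the plus strand at chr4:102087543-102607259, and Ctgf (ENSMUSG00000019997) on the plus strand at chr10:24595442-24598683.

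**Figure D5:**
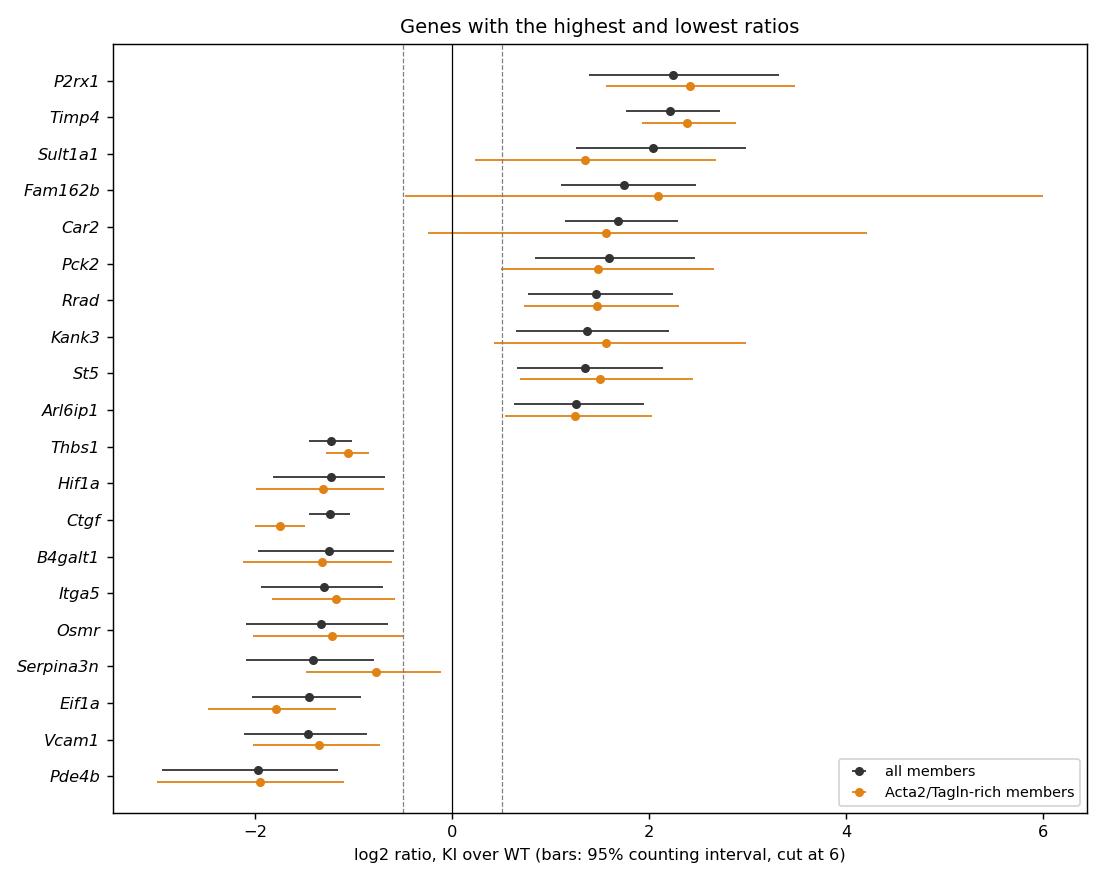
Log2 ratios of KI over WT for 20 of the 24 genes with the highest and lowest ratios, black for all members and orange for Acta2/Tagln-rich members, with 95% counting intervals. In rich members Fam162b and Car2 have the widest bars, since they had 6 and 10 UMIs there in KI and 1 and 3 in WT, and Ctgf moves farther from 0.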

How the data were processed

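Both libraries were 10x 3' libraries of mouse lung. The authors deposited UMI count matrices (31053 genes). Tools listed in the submitters' processing notes were R 3.5.3, Seurat 2.3.4 and Cell Ranger 2.0, and the build was mm10. Which step used which is not given. The matrix header names software version 3.0.2. The lowest deposited barcode held 500 UMIs. From the deposited counts, UMIs were summed over members per library and divided by their total (CPM). Log2 ratios (0.5 counts added, at least 50 UMIs summed over both libraries) carry exact conditional binomial 95% intervals, levels exact Poisson intervals and shares exact Clopper-Pearson intervals, all for counting error only. With 1 library per genotype no test was run, and 0.5 on the log2 scale is a size, not a test. Members, lists and the rule for named genes were chosen with earlier results of these data known. Genes of the member rule, Xist and Y-linked genes, mitochondrial, ribosomal protein, haemoglobin, immunoglobulin, T cell receptor and unnamed genes, and genes over 20 times lower in members than in another gate were not ranked for naming; 1847 were. Genes near 0 named for their role (Myocd, Cyba, Ednra, Ednrb, Pde5a, Nfkbia) were chosen after their values were seen. Other gates were built from marker UMIs: pericyte, fibroblast (Pdgfra, Tcf21) and endothelial (Cldn5, Cdh5), each at 2 or more UMIs with at most 1 UMI of Myh11 and Cnn1. Scrublet in scanpy 1.11.5 marked 0 barcodes at its automatic threshold; at an expected rate of 0.8% per 1000 barcodes it marked 665 KI (7.29%) and 877 WT (8.37%) barcodes, 1 KI and 5 WT members, kept except in an alternative. Of the genes on 33 lists, 1 was not found. Gene coordinates are from GENCODE M21. Python 3.11.15, numpy 2.4.6, scipy 1.17.1, pandas 2.3.3 and matplotlib 3.10.9 were used, and the functions were tested on simulated data. A few genes and 1 gene list that were analysed are not reported here.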

Additional observations from a re-analysis of the deposited data

How the results depend on the processing

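No paired analysis was possible because each genotype had 1 library, and for the same reason no replicate could be left out. Genes higher by more than 0.5 numbered 228 with a mitochondrial limit of 5%, 256 with at least 4 Myh11 and Cnn1 UMIs, 194 without members that held 2 or more pericyte-marker UMIs (45 KI and 59 WT members left), 308 in rich members, 143 after thinning to 1500 UMIs, 1239 with a floor of 20 UMIs and 47 with 200, against 487. Genes lower numbered 175, 201, 175, 256, 119, 835 and 41 under the same settings, against 303; fewer members or a higher floor leave fewer genes measured. The contractile sum kept its sign, at -0.12 (5% limit), -0.17 (no limits), -0.10 (at least 4), -0.29 (without marked doublets), -0.21 (without pericyte-marked members), -0.14 (rich), -0.34 (thinned) and -0.30 (centred on the median of all genes). With the 5% limit the median of the contractile list was -0.041, channels 0.23, redox genes -0.17 and stress genes of the endoplasmic reticulum -0.40. Without pericyte-marked members regulators were at 0.45, immediate-early genes at 0.33 and the stress genes at -0.50. Without the deepest 10% of members regulators were at 0.078 and inflammatory genes at -0.54. Thinning put synthetic genes at 0.00047 and redox genes at -0.23, and per-cell means put glucocorticoid and clock genes at -0.15. The share ratio was 0.71 with the 5% limit. Single genes changed sign: without pericyte-marked members Agtr1a (-1.12), Ajuba (-2.22), Bmp4 (-1.48), Il34 (-2.22), Nid1 (-0.55), Plat (-0.19), Spp1 (-4.85), Cyr61 (0.022), Irf1 (0.84) and Myc (0.0099); with at least 4 Myh11 and Cnn1 UMIs Bmp4 (-0.019), Hsph1 (-0.019), Plat (-0.18), Spp1 (-0.011) and Mfap4 (0.47); in rich members Ajuba (-0.024), C3 (0.16) and Mfap4 (0.27); thinned, Arhgef1 (-0.64), Nox4 (-0.36), Maff (0.026) and Mfap4 (0.026); with the 5% limit Ccl19 (-0.74) and Palld (0.0056); and without the deepest 10% Ccl19 (-0.59). All 24 genes of the naming rule kept their sign under the alternatives run, as did 70 of 88 other listed genes past 0.5. Since the 24 were picked for size in these same cells, their kept sign is no independent check. Of the 24, 14 moved by more than 1.5 times under at least 1 alternative, as did 37 of the 88. Over the alternatives P2rx1 ranged from 0.68 to 4.88, Timp4 from 1.58 to 6.73, Sult1a1 from 0.84 to 2.95, Pde4b from -3.25 to -1.13 and Serpina3n from -2.67 to -0.58; the highest values of P2rx1 and Timp4 come from the 5% limit, where WT members had 0 UMIs, and are no bounds. Values came inside 0.5 with the 5% limit for Mt1 (-0.20), Mt2 (-0.22), Hspb1 (-0.37), Dnajb1 (0.057), Atf3 (0.49), Camk2g (-0.40), Ltbp1 (-0.40), Nox4 (0.15), P2ry14 (0.040), Txnip (0.23) and Gata6 (0.42); with no limits for Heyl (0.41) and Tgfb2 (-0.24); with at least 4 Myh11 and Cnn1 UMIs for Txnrd1 (-0.28), Iigp1 (-0.082) and Mef2d (-0.42); thinned for Smtn (0.47) and Hspa5 (-0.45); and without pericyte-marked members for Trpm7 (0.47). Tpm1, Palld, Cyr61 and Il6st, all near 0.5, did so under several. Leaving out shared barcodes, barcodes under 1000 UMIs or members with fibroblast markers moved no count above by more than 1.5 times, and no sum, share or list median out of its counting interval or, for medians, the 95% order interval of the list's genes. The restriction to rich members, the removal of shared barcodes and the removal of each gene's top member were chosen after the data had been seen. Beyond the settings themselves, the cause of these moves was not tested. Depth limits genes under 50 UMIs, which is most receptors and channels listed.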
